A study of Mus musculus with 6 samples.

Results

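The immunoglobulin heavy chain V segments are the 113 genes, of 30142 named on the array, whose symbol begins with Ighv. They were chosen by the platform annotation, which gives each of them 1 probe set with no other gene on it, and which lists 9 of the symbols more than once. Ighv5-12 and Ighv14-2 are also named on probe sets shared with other genes, which were not used for them. The cells were Lineage- c-Kit+ Sca1+ (LSK) cells sorted from mouse bone marrow, the fraction in which stem cells of the blood and early multipotent progenitors are found. The knockout group had 3 samples from miR-21flox/flox:Mx1-Cre+ mice and the control group 3 from miR-21flox/flox:Mx1-Cre- littermates, 1 array each. Mice of both groups were injected with 250 µg of pIpC 7 times from an age of 4 to 6 weeks, and were used 4 weeks afterwards. The Mx1 promoter answers to interferon, which pIpC raises, in many cell types and not in blood cells alone. Cre was present in the knockout mice alone, so that its effects and those of losing miR-21 cannot be told apart here. The labels do not say whether a sample was 1 mouse or a pool, and a p-value here reflects no more than the spread of these arrays, which may be technical in part.

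A heavy chain gene is assembled in developing B cells, which join a D to a J segment and then 1 of many V segments to that DJ unit. RAG proteins cut the DNA, and the end-joining machinery and the enzyme TdT finish the joint. Before they are joined, V segments are transcribed in their unrearranged (germline) form, and a rearranged segment is transcribed from its own V promoter in B and plasma cells. The segments near the D cluster are used first in early B cell development, while the distal ones need the locus to be drawn together. A probe set for a V segment measures germline and rearranged transcripts alike. In such bulk samples, fewer cells of a type and less RNA per cell cannot be told apart.

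All values are log2 values that the authors made with RMA. The medians of the arrays over all probe sets lay between 1.89 and 1.95. A gene counted as dim where its mean over the 6 arrays was under the median of all probe sets, 1.92, and dim genes were not tested. Of the 18736 genes tested with limma, 31.5% passed at an adjusted p under 0.05, 19.4% as higher and 12.2% as lower in the knockout, and their median change (knockout minus control) was 0.07. Among markers of LSK cells, Kit was at 8.15 in the knockout and 8.61 in control and Flt3 at 7.58 and 8.05, whereas Ly6a, which encodes Sca-1, had no probe set named for it alone. All 5 LSK markers with a probe set passed as lower (summed log2 level 35.4 to 35.6 on knockout arrays and 37.3 to 37.8 on control arrays). One of these calls, that on Cd34 (-0.16), was lost in each fit that left out 1 array. The 6 neutrophil markers all passed as higher (summed level 39.9 to 40.7 against 30.2 to 31.9). The part of either list in the results below was not tested.

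Heavy chain V segments were mostly higher in the knockout LSK cells. Of the 113, 68 were tested, and 48 of these rose, 7 fell and 13 did not pass. The share of all genes that rose was 19.4% and the share that fell 12.2%. The median change of the 68 was 0.46. The largest change was that of Ighv8-12, a 15.5-fold rise, and the deepest fall that of Ighv5-16, by 2.28 on the log2 scale. Whether a segment was tested depended in part on the group where it was bright, since 12 segments had a control mean under the dim level and a knockout mean above it, and 1 the reverse. Of the 12, 6 were tested and all 6 rose, and the other one was tested and fell. Of the 61 tested segments with both group means at or above the dim level, a split chosen after the data had been seen, 42 rose and 6 fell, with a median of 0.46, against 19.5% and 12.3% of all genes with both means there. With no filter, all 113 entered a fit of 30142 genes, in which 59 rose and 7 fell, against 11.0% and 7.11% of all genes, and the median of the 113 was 0.37.

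**Figure D1:**
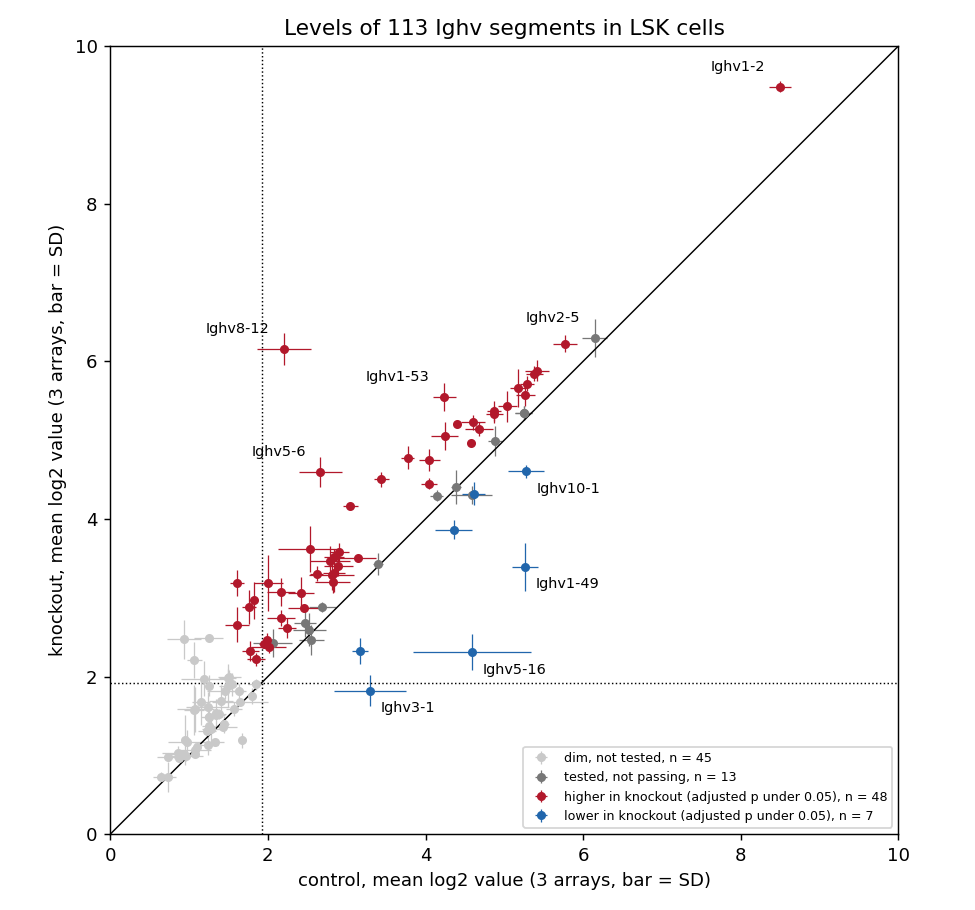
Mean log2 value of each of the 113 Ighv segments on the 3 control arrays (x axis) and the 3 knockout arrays (y axis), with bars for the SD, the diagonal of equal levels and dotted lines at the dim level of 1.92. The 48 segments that rose lie above the diagonal over the whole range of levels, the 7 that fell lie below it, and Ighv8-12 lies farthest above and Ighv5-16 farthest below it.

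The arrays of a group were close to each other in these segments. The median of the 113 was 2.57, 2.51 and 2.75 on knockout arrays 1 to 3 and 2.07, 2.17 and 2.06 on control arrays 1 to 3. Every knockout array thus lay above every control array. The number of segments at or above the dim level was 78, 74 and 72 in the knockout and 58, 63 and 61 in control. Over the 113 segments, arrays of the same group had Pearson correlations of 0.987 to 0.992 and arrays of different groups of 0.895 to 0.928. Over all probe sets these ranges were 0.995 to 0.997 and 0.987 to 0.991. These correlations are across probe sets, which are not independent replicates, and carry no test. For the tested segments the median SD within a group was 0.15, against a median size of change of 0.48, and in 62 of the 68 the change was larger than that segment's own SD within groups.

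The knockout and control values of a segment did not overlap in 55 of the 68, with the knockout above control in 48 (31.0% of all tested genes) and below it in 7 (17.2%). Among the 48 that rose, the median change was 0.56, and 12 at least doubled, while 0.448% of all tested genes passed as higher with a fold of at least 2. A fold of at least 1.5 was reached by 23 of the 48, against 1.77% of all genes at an unadjusted p under 0.05. Among the 7 that fell, the median was -0.85, and 3 passed a fold of 2, against 0.678% of all genes, and 5 a fold of 1.5, against 2.36%. In the order of all 18736 changes, 13 segments stood among the 100 highest and 3 among the 100 lowest. Ighv8-12 had the highest change of all tested genes. Ighv1-18, Ighv5-9-1, Ighv14-2 and Ighv1-26, which had a control mean under the dim level, were among the 12, the 23 and the 13 of the rises just counted. Without segments of that kind, 8 rises reached a fold of 2 (against 0.375% of the genes with both means at or above the dim level), 19 a fold of 1.5, and 9 stood among the 100 highest.

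Ighv8-12 had log2 values of 6.32, 5.93 and 6.22 in the knockout and 2.53, 2.24 and 1.85 in control. The lowest knockout array was more than 3 units above the highest control array, and control array 3 was under the dim level. The change was 3.95 ± 0.16 (limma SE, adjusted p = 9.65e-07), and lay between 3.78 and 4.11 when any 1 array was left out. Its nearest measured neighbours in the locus, Ighv1-69 and Ighv1-70, rose by 0.39 and 0.36. The call on Ighv1-70 was lost without any 1 array except control array 3.

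Ighv5-6, a segment of the D-proximal end, had values of 4.38, 4.66 and 4.75 in the knockout and 2.98, 2.49 and 2.53 in control (change 1.93 ± 0.14, adjusted p = 1.73e-05). The groups were apart by more than 1 unit. Ighv1-18 was at 3.15, 3.04 and 3.37 in the knockout and at 1.72, 1.57 and 1.55 in control, a change of 1.58 ± 0.09 (adjusted p = 5.45e-06). All 3 control arrays lay under the dim level, so the size of this change is uncertain. Ighv1-53 had values of 5.62, 5.34 and 5.68 against 4.14, 4.17 and 4.41 in control, both groups well above the dim level (1.31 ± 0.10, adjusted p = 3.00e-05).

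Both segments of family 11 rose. This family is known for its use by B-1 cells, which make natural antibodies against the lipid phosphatidylcholine. Ighv11-1 had values of 4.13, 4.20 and 4.16 in the knockout and 2.95, 3.14 and 3.05 in control (1.12 ± 0.07, adjusted p = 6.66e-06). Ighv11-2 had values of 4.77, 4.92 and 4.64 in the knockout and 3.71, 3.86 and 3.75 in control (1.002 ± 0.08, adjusted p = 3.94e-05). In both, the groups were clearly apart. Ighv12-3, the other V segment known for that lipid specificity, was at 4.30 ± 0.12 in knockout cells and 4.58 ± 0.26 in control cells (SD, n = 3 each), and did not pass (limma adjusted p = 0.104). It passed as lower without control array 1 (change -0.43, adjusted p = 0.00776) and with array weights (-0.32, adjusted p = 0.0431).

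The brightest probe set was that of Ighv1-2, which the RefSeq table lists as a V segment pseudogene. Brightness depends on the probes as well as on the transcript, so it gives no order of expression between segments. Its values were 9.55, 9.48 and 9.41 in the knockout and 8.62, 8.35 and 8.53 in control. The groups did not overlap (0.98 ± 0.08, adjusted p = 3.57e-05). Of the 13 segments with a mean of at least 5, 10 rose. Across all tested genes, at any level, 19.4% rose, and the share among genes this bright was not computed. Of the 10 brightest, the others that rose were Ighv1-5 (0.46), Ighv1-56 (0.46), Ighv1-15 (0.46), Ighv1-23 (0.43), Ighv5-12-4 (0.31) and Ighv1-62-1 (0.49). The call on Ighv5-12-4 was lost without knockout array 2 or control array 1 or 3. The second brightest, Ighv2-5, was at 6.06, 6.55 and 6.26 in the knockout and 5.98, 6.17 and 6.29 in control, with overlapping groups (change 0.14, adjusted p = 0.390).

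The remaining 2 of the 10 brightest, Ighv1-62-2 and Ighv1-71, had the same value to 6 decimals on each array and are counted as 2 probe sets although they hold 1 measurement. That value was 5.24, 5.37 and 5.41 in the knockout and 5.32, 5.12 and 5.29 in control, a change of 0.10 that did not pass (adjusted p = 0.337). The 113 probe sets therefore hold 112 distinct measurements. Segments of a family are alike in sequence, and how far the other probe sets share probes was not tested.

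The other segments among the 12 rises with the smallest adjusted p were Ighv5-9-1 (1.15 ± 0.11), Ighv14-2 (1.12 ± 0.10), Ighv1-34 (1.06 ± 0.07), Ighv1-14 (0.81 ± 0.06) and Ighv1-64 (0.69 ± 0.07). Ighv1-14 had the tightest groups of these, with 5.16, 5.21 and 5.23 in the knockout and 4.42, 4.36 and 4.41 in control. Of the 48 segments that rose, 6 had a control mean under the dim level, Ighv5-9-1 (control mean 1.82) and Ighv14-2 (1.76) among them.

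**Figure D2:**
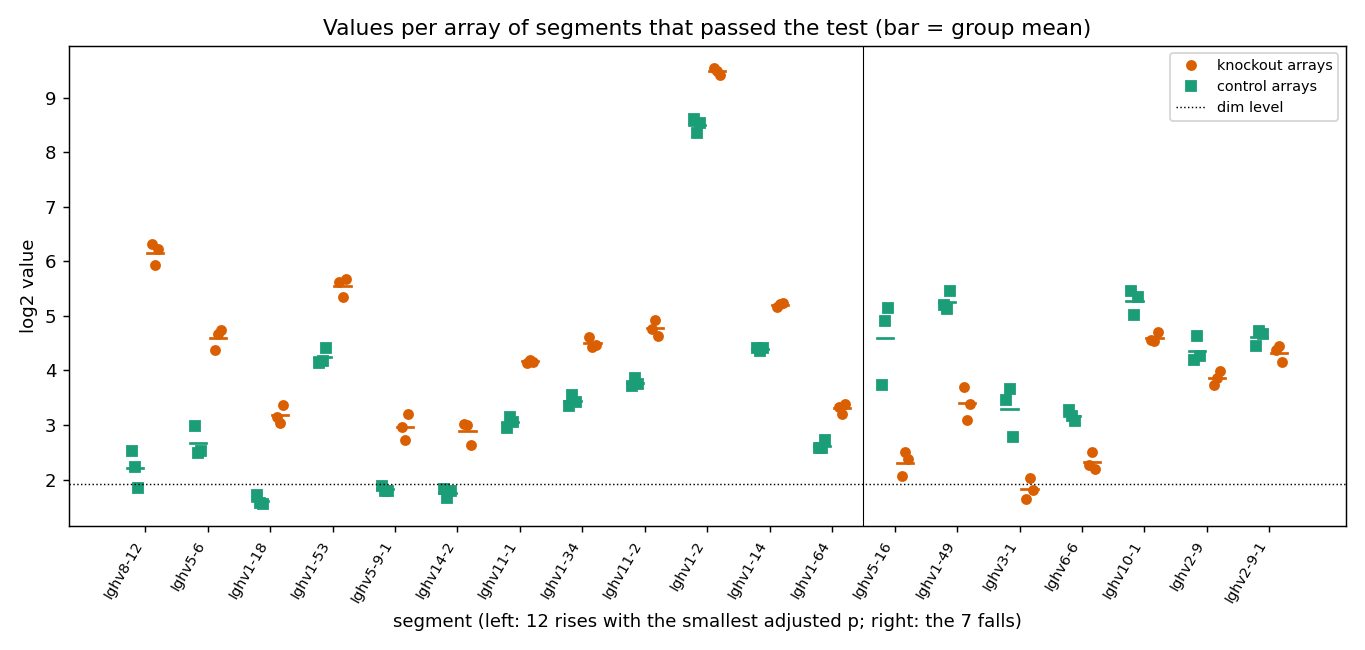
Log2 values on each of the 3 knockout (circles) and 3 control (squares) arrays, with group means as bars, for the 12 rises with the smallest adjusted p, ordered by change, and the 7 falls. In each of these 19 segments the groups are apart, and the widest spread within a group is that of Ighv5-16 on the control arrays, 3.74 to 5.14.

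The 7 segments that fell belonged to 6 families. Ighv5-16 had values of 2.06, 2.50 and 2.38 in the knockout and 3.74, 4.90 and 5.14 in control. Control array 1 was the lowest of its group and still above every knockout array. The change was -2.28 ± 0.30 (adjusted p = 7.18e-04), with -2.71 and -2.01 as the extremes when any 1 array was left out. Ighv1-49 had values of 3.70, 3.10 and 3.38 in the knockout and 5.20, 5.13 and 5.45 in control (-1.87 ± 0.14, adjusted p = 2.61e-05). It was the only segment of family 1 that fell. Its measured neighbours Ighv8-4 and Ighv8-5 were both dim, with changes of 0.24 and -0.07.

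Ighv3-1 had values of 1.64, 2.03 and 1.80 in the knockout and 3.46, 3.66 and 2.78 in control (-1.48 ± 0.20, adjusted p = 7.53e-04). Its knockout mean, 1.82, lay under the dim level, so the size of the fall is uncertain. Ighv6-6 fell by 0.85, with values of 2.26, 2.51 and 2.20 in the knockout and 3.27, 3.17 and 3.07 in control. Ighv10-1 fell by 0.67, with 4.56, 4.55 and 4.70 in the knockout and 5.46, 5.02 and 5.35 in control. Ighv2-9 fell by 0.49, with 3.74, 3.87 and 3.98 in the knockout and 4.19, 4.62 and 4.26 in control. In these 3 every knockout array lay below every control array, and the call was kept in each fit that left out 1 array. Ighv2-9-1 (-0.29, adjusted p = 0.0439) was the weakest of the 7. Its call was lost without knockout array 1 or 3 or control array 2 or 3, after a second quantile normalization and with no filter on dim genes.

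The 113 segments fell into 15 V families, which are groups of segments with similar sequence, named by the number after Ighv. The counts below stand beside the 19.4% of all tested genes that rose and the 12.2% that fell. Family 1, the largest, had 61 segments, of which 37 were tested, 30 rose, 1 fell and 6 did not pass. Its median change was 0.46 over both the tested segments and all 61. In family 8, 5 of 8 were tested and all 5 rose, with a median of 0.68. These were Ighv8-12, Ighv8-13 (1.09), Ighv8-6 (0.68), Ighv8-14 (0.67) and Ighv8-9 (0.67), so that Ighv8-12 stood well above the rest of its family. Ighv8-13 varied most within groups, with 3.93, 3.35 and 3.58 in the knockout and 2.86, 2.08 and 2.65 in control. Its groups still did not overlap.

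Family 5 had 7 of 9 tested, of which 6 rose and Ighv5-16 fell, with a median of 0.47. Family 2 had all 8 tested, of which Ighv2-2 (0.50) and Ighv2-3 (0.39) rose, Ighv2-9 and Ighv2-9-1 fell and 4 did not pass (median 0.12). The call on Ighv2-3 was lost without control array 1 or 2. Thus families 2 and 5, which alternate in the D-proximal part of the locus, each held segments of either direction, family 5 with 1 fall. Among all tested genes 19.4% rose and 12.2% fell, and whether these counts differ from those shares was not tested.

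The other families were small. Both tested segments of family 14 rose, Ighv14-2 as above and Ighv14-1 by 0.90, and the single tested segment of family 13, Ighv13-2, rose by 0.37. That call was lost without knockout array 1 or 3 or control array 1 or 3. In family 10, Ighv10-1 fell and Ighv10-3 was at 0.02 without passing. In family 6, Ighv6-6 fell and Ighv6-3 was at -0.09 without passing, and in family 3 the single tested segment, Ighv3-1, fell. Families 4, 9, 15 and 16 had no tested segment, and their brightest were Ighv4-1, Ighv9-4, Ighv15-2 and Ighv16-1, with means of 0.98, 1.55, 1.37 and 1.18. Differences between families were not tested, since segments of a family share sequence and are not replicates.

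**Figure D3:**
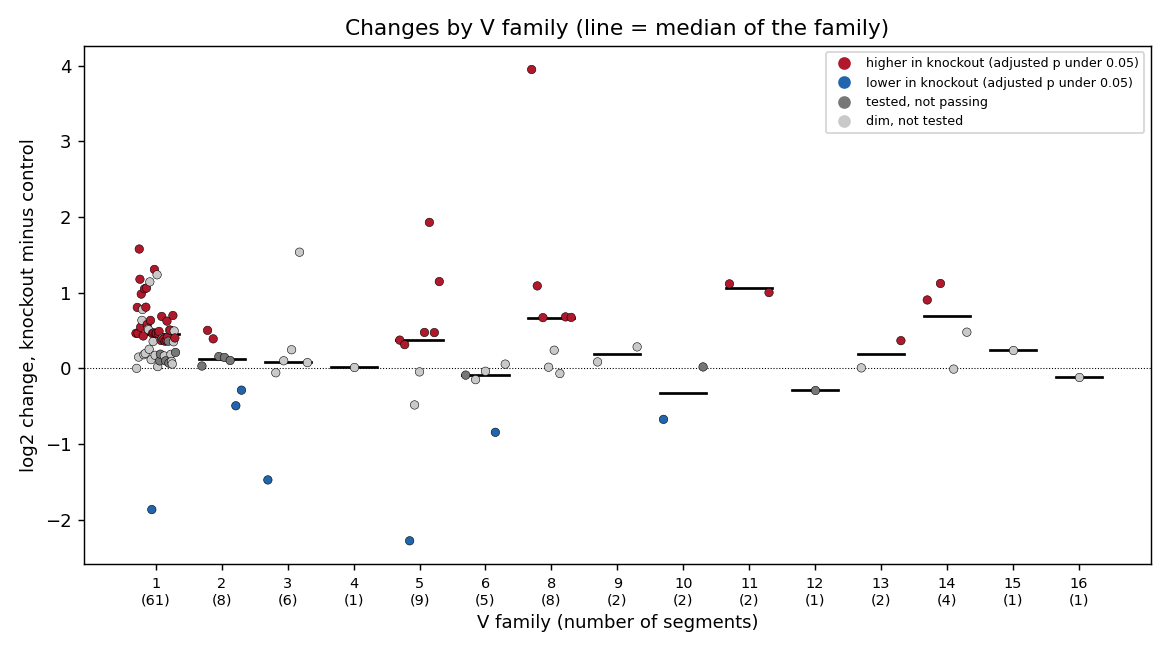
Change of each segment (knockout minus control, log2) by V family, with the number of segments of each family in brackets and a line at the family's median. Family 1 has 30 segments that rose and 1 that fell, family 8 has 5 that rose, and the falls are spread over families 1, 2, 3, 5, 6 and 10.

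Along the locus, on chromosome 12, the segments were placed by their order in RefSeq's genes of assembly GRCm38.p6, which include 183 Ighv segments and all 113. No source used here gives the genome build behind the array values. The order alone was therefore used, counted from the side of the D, J and constant genes. The 183 were divided into 3 sections of 61. In the D-proximal section, 33 segments had a probe set, 20 were tested, 12 rose and 4 fell (median change 0.38). In the middle section, 20 of 37 were tested, 14 rose and 2 fell (0.46). In the distal section, 28 of 43 were tested, 22 rose and 1 fell (0.46). Rises were thus found in all 3 sections, and 6 of the 7 falls lay in the D-proximal and middle ones. Among all tested genes 19.4% rose and 12.2% fell. The placing of the falls rests on 7 calls and was not tested.

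Stretches of the locus, picked after their values had been seen, held large changes in close order. In the D-proximal section, at places 35 to 42 of the order, stood Ighv14-1, Ighv3-1, Ighv11-1, Ighv14-2 and Ighv11-2. All rose by at least 0.90 except Ighv3-1, which fell by 1.48. The other measured segment there, Ighv4-1, was dim in both groups (change 0.02). Just nearer to the D segments, Ighv2-9 fell and Ighv5-17 was dim, so that rises and falls lay side by side in this stretch.

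In the middle section, Ighv1-18, Ighv1-19-1 and Ighv1-19, at places 96 to 98, rose by 1.58, 0.54 and 1.18. Ighv1-19 had values of 3.58, 2.92 and 3.06 in the knockout and 1.92, 2.22 and 1.89 in control (1.18 ± 0.16, limma adjusted p = 7.98e-04), and its groups were apart although 2 control arrays were under the dim level. Farther on, Ighv1-23 (0.43), Ighv1-26 (1.05) and Ighv1-31 (0.81) rose. Between them Ighv1-20 (0.63), Ighv1-22 (0.78), Ighv1-24 (0.18) and Ighv1-30 (0.20) were dim, and of these 4 Ighv1-20 and Ighv1-22 rose in the fit with no filter.

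Place and family cannot be told apart across the whole locus. Families 2, 5, 11 and 14 lay wholly in the D-proximal section, and family 1 lay in the middle section (25 segments) and the distal one (36). Within family 1, 13 of 14 tested segments of the middle section rose and the other one did not pass (median change 0.69). In the distal section 17 of its 23 rose and 1 fell, with a median of 0.41. These counts stand beside the 19.4% and 12.2% of all tested genes that rose and fell. The Spearman correlation of place with change was 0.24 over all 113 segments and -0.22 over the 61 of family 1. That of the changes of neighbouring measured segments was 0.24 over 112 pairs. These are descriptions, since the segments share a locus, arrays and similar sequence.

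**Figure D4:**
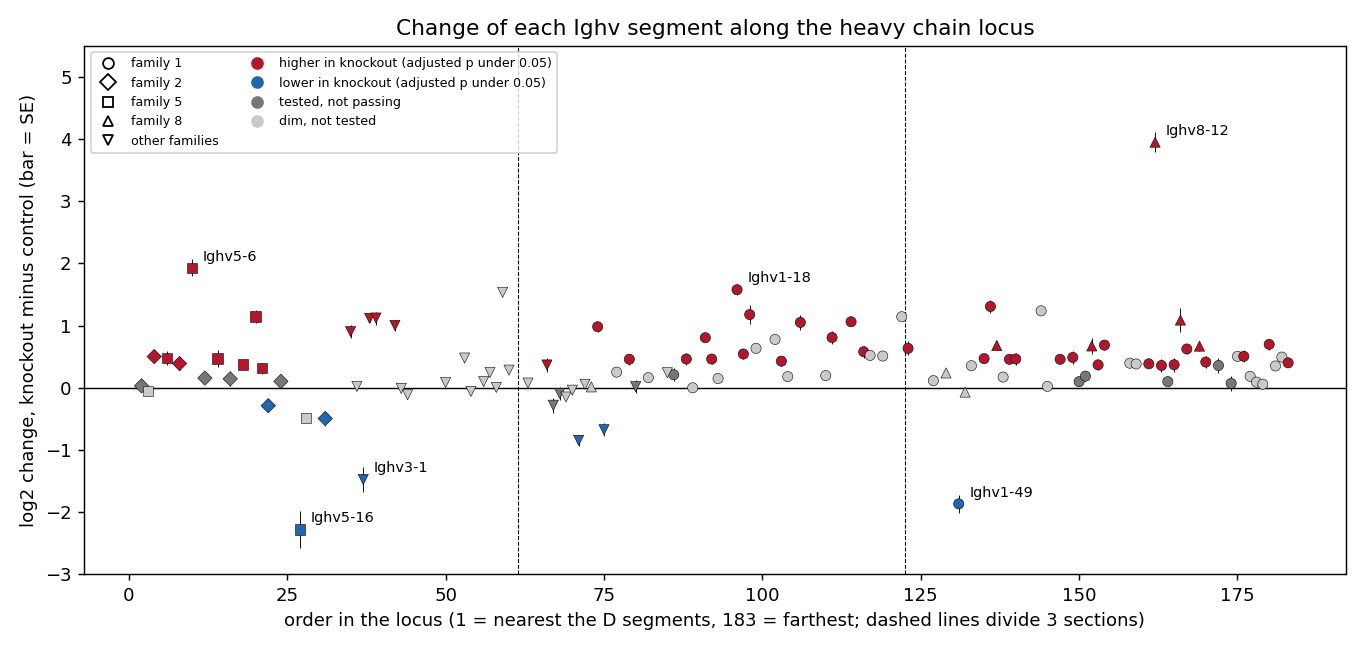
Change of each of the 113 segments (knockout minus control, log2, with limma SE for tested segments) against its order in the locus, from 1 next to the D segments to 183 at the far end, with symbols for V families and dashed lines between sections. Rises occur in every section, the D-proximal one holds 4 of the 7 falls, and Ighv8-12 and Ighv1-49 stand apart from their neighbours.

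Some segments are known for particular uses. Ighv5-2, the functional segment nearest to the D cluster and known for frequent use in early B cell development, was dim, at 1.39 ± 0.11 in knockout cells and 1.44 ± 0.06 in control cells (SD, n = 3 each). Ighv1-72, known from antibodies to the hapten NP, was at 3.19 ± 0.14 and 2.82 ± 0.22 (SD, n = 3 each). It passed as higher (0.37, limma adjusted p = 0.0332), and the call was lost without knockout array 1 or 3 or control array 1 or 2. With no filter on dim genes the call was lost too (limma adjusted p = 0.0538). The far end of the locus is marked by Ighv1-86, which rose by 0.40 ± 0.07 (adjusted p = 0.00329). Next to Ighv5-2 toward the far end, Ighv2-2, Ighv5-4 (0.47) and Ighv5-6 rose, so that rises were found near both ends.

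The 45 dim segments had means between 0.68 and 1.87. Of these, 36 had a change above 0, and their median was 0.17. In the fit with no filter, 11.0% of all genes rose and 7.11% fell, and the shares among dim genes alone were not computed. In that fit, 12 of the 45 rose and 1, Ighv5-17 (-0.48), fell. The highest of them were Ighv3-6 (1.54), Ighv1-58 (1.24) and Ighv1-42 (1.14), each with all control arrays under the dim level and all knockout arrays above it. Just under the dim level stood Ighv1-82 and Ighv1-58, both with a mean of 1.87 and with changes of 0.06 and 1.24. Just above it stood Ighv1-63 (mean 2.04) and Ighv1-19-1 (2.05), which rose by 0.37 and 0.54.

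The 13 tested segments that did not pass had changes from -0.28 to 0.36, and in all of them the groups overlapped. Family 2 held 4 of them, Ighv2-1 (0.03), Ighv2-4 (0.16), Ighv2-5 and Ighv2-6-8 (0.10). Family 1 held 6, which were Ighv1-9 (0.21), Ighv1-62-2, Ighv1-62-3 (0.19), Ighv1-71, Ighv1-76 and Ighv1-77 (0.07). Ighv1-76 was the nearest to the threshold, with 2.24, 2.45 and 2.59 in the knockout and 1.88, 2.34 and 1.97 in control (0.36 ± 0.13, adjusted p = 0.0575). It passed with the replicate number as a block (adjusted p = 0.0178). Ighv2-1, the measured segment nearest to the D segments and a pseudogene in the RefSeq table, was at 3.52, 3.51 and 3.26 in the knockout and 3.35, 3.38 and 3.47 in control.

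The calls on single segments held in most fits that left out 1 array. Of the 55 segments that rose or fell, 48 had the same call in all 6 of them. Beside those already named, the call on Ighv5-9 (0.47) was lost without knockout array 1 or 2 or control array 1. The count of segments that rose ran from 42 to 47 over these fits, and that of segments that fell from 6 to 8. Of all 18736 tested genes, 2341 to 3115 rose and 1748 to 2041 fell in the same fits.

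Other parts of the immunoglobulin loci moved as well. Of 9 heavy and light chain constant, D and J genes with a probe set of their own, 4 rose, 1 fell and 4 did not pass (median 0.27), beside 19.4% and 12.2% of all tested genes that rose and fell. Ighm, the constant region of IgM, whose germline transcript early progenitors can make, was bright and fell, from 9.61 ± 0.06 in control to 9.26 ± 0.04 in the knockout (SD, n = 3 each, change -0.35, limma adjusted p = 0.00258). In a limma fit by probe set, those annotated to Ighm with Ighv2-6 (0.43, adjusted p = 0.0150) and with Ighv2-7 (0.07, adjusted p = 0.459) did not fall. Ighg2b, the IgG2b constant region, rose from 4.99 to 6.29 (1.30 ± 0.09, adjusted p = 1.49e-05), and Ighg1 rose by 0.50. The D segments Ighd5-7 and Ighd6-1, which had the same values on all arrays, rose by 0.63, so that these 2 of the 4 rises hold 1 measurement. Ighd6-2 (0.15), Ighe (0.10), Igkj3 (0.27) and Ighd5-8 (-0.20) did not pass. Igkj3 passed without knockout array 3 (0.43, adjusted p = 0.0228). Ighd and Igkc had no probe set of their own.

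Genes that neighbour the V segments beyond the far end fell or did not pass. Of all tested genes 12.2% fell, and of the 5 tested beyond the far end 3 fell. These were Vipr2 (-0.26), a neuropeptide receptor gene, Gm23732 (-0.42) and Esyt2 (-0.29), a membrane tether, while the zinc finger gene Zfp386 (0.02) and Wdr60 (-0.23) did not pass. The call on Vipr2 was lost in 4 of the 6 fits that left out 1 array. On the D side 2 neighbours were tested, of which Ighd6-1 rose by 0.63 and Ighd6-2 did not pass.

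Of all tested genes 19.4% rose and 12.2% fell, and the B lineage list was set beside these shares. Of its 26 genes, 19 were tested, and 1 rose, 4 fell and 14 did not pass (median -0.06). The summed log2 level of the 23 with a probe set was 88.7 to 89.1 on knockout arrays and 90.0 to 91.1 on control arrays. The mature B cell markers Ms4a1 (the CD20 gene), Cr2 and Cd22 were dim in both groups. Among those that fell were the adaptor Blnk (-0.61), Cd72 (-0.45) and the interleukin-7 receptor gene Il7r (-0.31). The B lineage factor Ebf1 passed as lower (-0.19, adjusted p = 0.0353), a call that was lost without any 1 array except control array 3.

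Cd79b, a signalling chain of the B cell receptor, rose by 0.26, and lost its call without knockout array 3. Its partner Cd79a (0.03), the lineage factor Pax5 (-0.01), the surrogate light chain genes Vpreb1 (0.07) and Igll1 (-0.08), Fcrla (0.16) and Pou2af1 (0.10) did not pass. The direction of Pax5 and Cd79a changed between alternatives.

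Plasma cell markers went both ways. Of 10 listed, 8 were tested, and 3 rose, 2 fell and 3 did not pass (median 0.13), where 19.4% of all tested genes rose and 12.2% fell, with a summed level of 35.3 to 35.9 on knockout and 33.5 to 34.6 on control arrays. The chaperone Fkbp11 rose by 1.21, Jchain, which links IgM and IgA subunits, by 0.56 and Derl3 by 0.36, while Irf4 (-0.47) and Sdc1 (-0.52), the CD138 gene, fell. Xbp1 (0.11), Tnfrsf17 (0.14) and Mzb1 (0.10) did not pass, and Prdm1 was dim in both groups at 1.67 and 1.68. Of 6 T cell markers with a probe set, 4 were tested and 1, Thy1, rose (0.23), a call lost in 4 of the 6 fits that left out 1 array (summed level 13.5 to 13.9 against 13.1 to 13.5). Of the 2 erythroblast markers with a probe set, 1 was tested and did not pass (4.94 to 5.10 against 4.86 to 5.03). The part of plasma cells and B-lineage cells in the values of the V segments was not tested.

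Of 40 genes of V(D)J recombination and control of the heavy chain locus, 31 were tested, and 2 rose, 9 fell and 20 did not pass (median -0.11). Rag1, Rag2, Dntt, Ebf1, Il7r, Pax5 and Pou2af1 are also in the B lineage list, so the falls of Ebf1 and Il7r are counted in both lists. Of all tested genes 19.4% rose and 12.2% fell. Rag2 was dim in both groups (1.34 and 1.42), and Rag1 had no probe set of its own. Dntt, which encodes TdT, was at 7.42 ± 0.18 in the knockout and 7.69 ± 0.14 in control (SD, n = 3 each) and did not pass (limma change -0.27, adjusted p = 0.0717). It passed as lower with the replicate number as a block (adjusted p = 0.00836), after a second quantile normalization (-0.33, adjusted p = 0.0254) and without control array 2 (-0.35, adjusted p = 0.0400).

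The forkhead factor Foxo1, which drives Rag expression, fell by 1.04, the chromatin reader Brwd1 by 0.51, the E protein gene Tcf12 by 0.30, and the break repair genes Trp53bp1 and Xrcc5 by 0.32 and 0.30. The end-joining genes Nhej1 and Poll rose by 0.31 and 0.29, and the call on Poll was lost without knockout array 1 or control array 2 or 3. Among factors known to shape the locus, the cohesin subunit gene Smc1a (-0.31, adjusted p = 0.0325) and Wapl (-0.25, adjusted p = 0.0286), which encodes the cohesin release factor, passed as lower. The call on Smc1a was lost in 4 and that on Wapl in 5 of the 6 fits that left out 1 array. The cohesin genes Rad21 (-0.05) and Smc3 (-0.18) did not pass, nor did Yy1 (-0.01), Ctcf (-0.14) and Ezh2 (0.13).

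**Figure D5:**
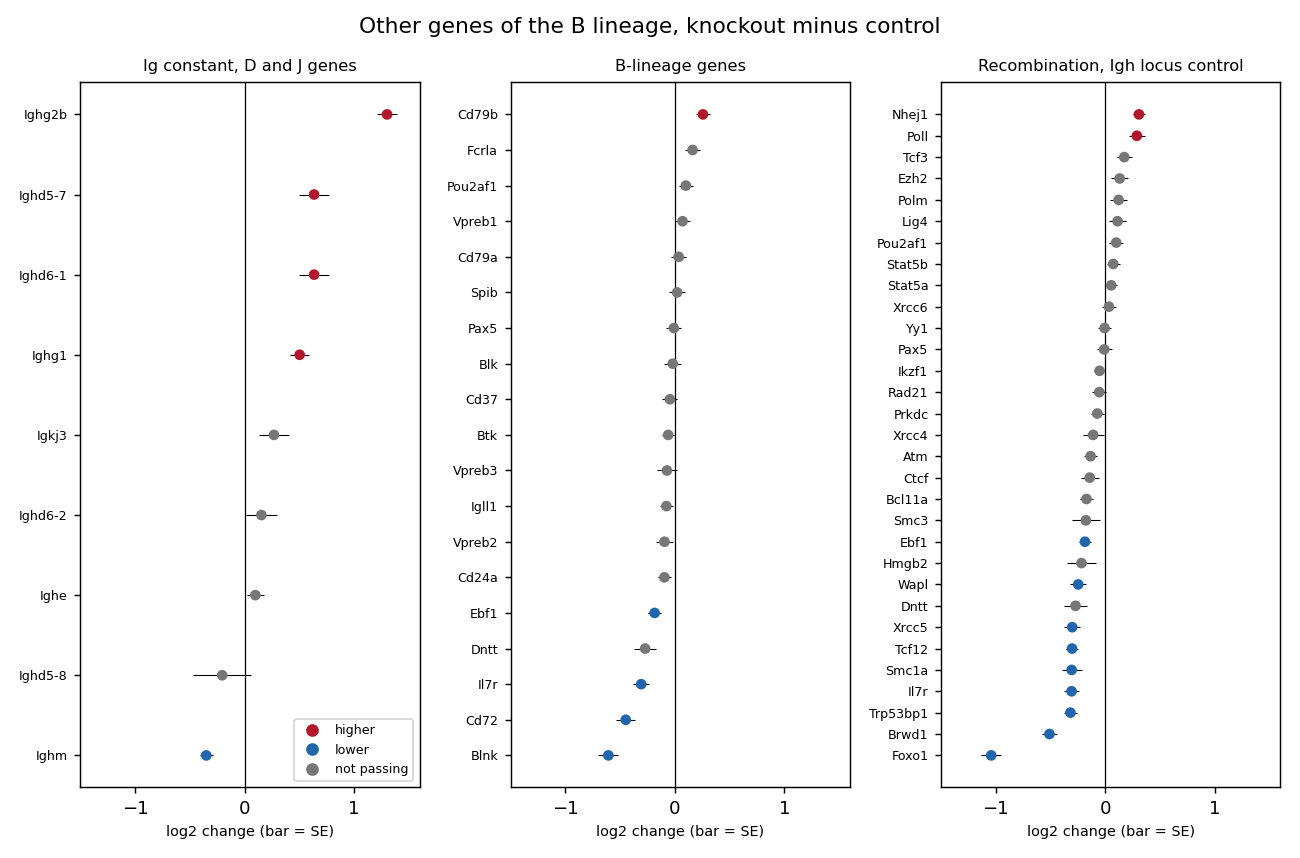
Change (knockout minus control, log2, with limma SE) of the tested genes in 3 lists, each gene on a row of its own, coloured by whether it passed. Ighg2b (1.30) and Foxo1 (-1.04) are the largest changes, Ighm lies below 0, and most B-lineage and recombination genes lie near 0.

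V segments of the other antigen receptor loci were set beside these. Of 46 tested kappa light chain V segments (Igkv), 16 rose and 10 fell, with a median change of 0.12. Of 48 tested T cell receptor V segments, 3 rose and 2 fell, with a median of 0.03. Of all tested genes 19.4% rose and 12.2% fell. These counts are descriptions, and the difference between the loci was not tested.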

How the data were processed

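RNA of 6 LSK samples (250 ng each) was measured on Affymetrix arrays. The authors deposited log2 values, 1 column per array; the submitters' processing notes name RMA, with version and genome build not given in the sources used here. RMA brings the arrays to 1 distribution, which would remove a shift common to most transcripts. The log base was read as 2 from the range, up to 11.5.

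Probe sets were named by the platform annotation: 30604 had 1 distinct symbol, 2146 several and 33206 were not listed. Symbols other than Ighv were updated by Entrez ID through RefSeq, which changed 827. Of 30142 genes the brightest probe set was used, and 18736 with a mean of at least 1.92 were tested with limma 3.58.1 (R 4.3.3, lmFit and eBayes, two-sided, Benjamini-Hochberg over all genes tested). The fit was tested on simulated data. A ± after a change is the SE.

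Replicate numbers come from the titles. Deviations from group means of equally numbered arrays correlated at 0.22, 0.33 and 0.10 across genes. Those of unequally numbered arrays ran from -0.27 to 0.12, so that the third equal pair did not stand out. A fit with the number as a block was therefore an alternative and not the main fit.

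Members, lists and tests were chosen with earlier results of these data known. Named were segments that passed (up to 12 a direction), the 10 brightest, the extremes, the brightest of each family, those next to the dim level, and up to 8 genes a list by p with a set always reported; others were chosen after their values were seen. No promoter or other sequence of a V segment was used here, so the planned search for a promoter motif was not run. Ighmbp2, which is no immunoglobulin gene, was left out of the constant region list.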

Additional observations from a re-analysis of the deposited data

Results flagged for a closer look

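On the array, 8 probe sets were annotated to an Ighv segment together with other genes and entered no count above. Of these, 4 were above the dim level and entered a limma fit by probe set, in which 11.5% of all probe sets were higher in the knockout. On 3 of the 4 the knockout signal was above that of the control arrays, and the other one, annotated to Ighm and Ighv2-7, did not pass (0.07, adjusted p = 0.459). The probe set annotated to Ighv9-1 and Ighv9-2 was at 4.93 ± 0.15 in knockout cells and 3.37 ± 0.23 in control cells (SD, n = 3 each), a change of 1.56 (limma adjusted p = 1.96e-04). The probe set shared by Ighv14-2 with Ighg2c, Igha, Ighd and J segments was higher by 0.68 (adjusted p = 4.24e-04). The probe set shared by Ighm and Ighv2-6 was higher by 0.43 (adjusted p = 0.0150). The rest of the 8 were dim and were not tested. Their changes were 0.48 (Ighv8-8 with Ighv8-11), -0.05 (Ighv5-12 with Ighv5-15), -0.12 (Ighv7-2 with Igh-VS107) and -0.15 (Ighv7-4 with Igh-VS107). The probe set of Ighv5-12 alone, counted above, rose by 0.37.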

How the results depend on the processing

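The direction of the result, more V segments higher than lower, was the same under each alternative run. All tested genes also had more higher than lower, except with the 1.5-fold minimum (332 higher, 442 lower). With the stricter filter 3364 of 14035 genes were higher and 2220 lower, and with no filter 3328 and 2143 of 30142. The direction alone thus does not set the segments apart from other genes. Segments that rose numbered 33 of 46 tested (stricter filter) to 59 of 113 (no filter), and segments that fell 5 to 8. The exception was an unadjusted p under 0.05 with a 1.5-fold minimum, which gave 23 of 68 that rose (and 774 genes in all, against 5909). Leaving out 1 array gave 4180 to 5156 genes, 42 to 47 rises, 6 to 8 falls, 56 to 60 segments without overlap and a median change of 0.43 to 0.48. Of all 18736 tested genes, 10304 to 11093 had no overlap in these fits, against 9026 with all arrays. A group with 1 array fewer overlaps less easily. With the replicate number as a block, 7183 genes passed, 49 segments rose and 7 fell; all 55 calls were kept and Ighv1-76 was gained, and beside it and Dntt it changed no other call on a named gene. Centring each array on its median kept all 55 calls and a second quantile normalization 54. Of 1072 values of named genes under alternatives, 1011 kept direction and call. Pax5 reversed to 0.016 after a second quantile normalization and ran from -0.071 to 0.037 when 1 array was left out. Mzb1 ran from -0.0061 to 0.23 and Cd79a from -0.0018 to 0.087, each below 0 in 1 of these fits. The cause was not tested. With 3 arrays a group, the number of arrays and the signal over background limit what the dim segments can show.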
